A study of Leptinotarsa decemlineata with 61 samples.

Results

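Whole bodies of third-instar (L3) larvae of the Colorado potato beetle (CPB) were compared with whole bodies of second-instar (L2) larvae. The comparison used 6 of the 61 RNA-seq libraries of a CPB expression atlas, which are L3 replicates 3, 4 and 5 and L2 replicates 1, 4 and 5. Each library was made from a pool of 3 larvae of the E06 strain, fed on potato leaves, without any treatment or genetic change, so both stages shared strain, diet and handling. The libraries were assigned by their names and titles, because the tissue field of the labels named the first instar for the L3 libraries and larval hemolymph for the L2 libraries. The labels gave neither the sex of the pooled larvae nor their age within the instar. The other libraries, from eggs, the first instar (L1), tissues of the fourth instar (L4) and adult tissues, served to show where else a gene was expressed and, for eggs and L1, as further stages in distances, ranges and an alternative fit.

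Beetle larvae grow by feeding and shed their cuticle in a moult between instars. Pulses of ecdysteroid hormones time each moult, and the epidermis lays down a new cuticle before the old one is shed. The midgut secretes digestive enzymes and takes up the food, while the fat body stores nutrients and secretes proteins into the hemolymph, some of which accumulate towards the end of larval life.

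Expression was measured as TPM, in which the read pairs of a gene are divided by its length and scaled to the same total in each library. Between 14087452 and 16504928 read pairs were counted on genes in L3 libraries, against 16156811 to 16614830 in L2 libraries. At a gene of median length, 1 read pair was worth 0.0562 to 0.0639 TPM over the 6 libraries. The number of genes above 1 TPM was 10268, 9939 and 9635 in L3 replicates 3, 4 and 5, against 10365, 10462 and 10412 in L2 replicates 1, 4 and 5. The 10 most abundant genes took 13.2% to 15.4% of TPM in L3 libraries and 8.56% to 12.5% in L2 libraries. A gene was tested when it was above 1 TPM in at least 2 of the 6 libraries, which held for 10957 of the 15578 genes of the table. The identifiers of the table carry no gene names, and 0 of them matched the gene table of RefSeq, so genes are described here by position, by level and by the tissues that expressed them. In whole bodies, fewer cells of a type and less RNA per cell cannot be told apart. The p-values measure the spread between these pools only.

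On average, the L3 libraries lay farther from the L2 libraries than from each other. Distances were Euclidean on log2(TPM + 1) over the tested genes. L3 and L2 libraries were 156.2 ± 15.1 apart (mean ± SD of the 9 pairs), whereas the mean distance was 101.8 within L3 and 67.0 within L2. The 3 L1 libraries were closest to each other, at a mean of 37.3. The separation, between-stage minus within-stage distance, was 71.8, with an exact one-sided permutation p of 0.1, the smallest that the 10 splits of 6 libraries allow.

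The L3 libraries did not form a compact group. L3 replicates 3 and 4 were 74.3 apart, replicates 4 and 5 were 96.4 apart, and replicates 3 and 5 were 134.6 apart. L3 replicate 5 was closer to L2 replicate 1, at 131.3, than to L3 replicate 3. L3 replicate 5 lay nearest to the younger larvae, with a mean distance of 141.2 to L2 and 138.6 to L1. The corresponding values were 157.1 and 157.3 for L3 replicate 4, and 170.3 and 175.5 for L3 replicate 3. Within L2, replicate 4 stood farthest from the others (mean 71.6), was the L2 library farthest from L1 (120.6) and the one closest to eggs (197.7).

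**Figure D1:**
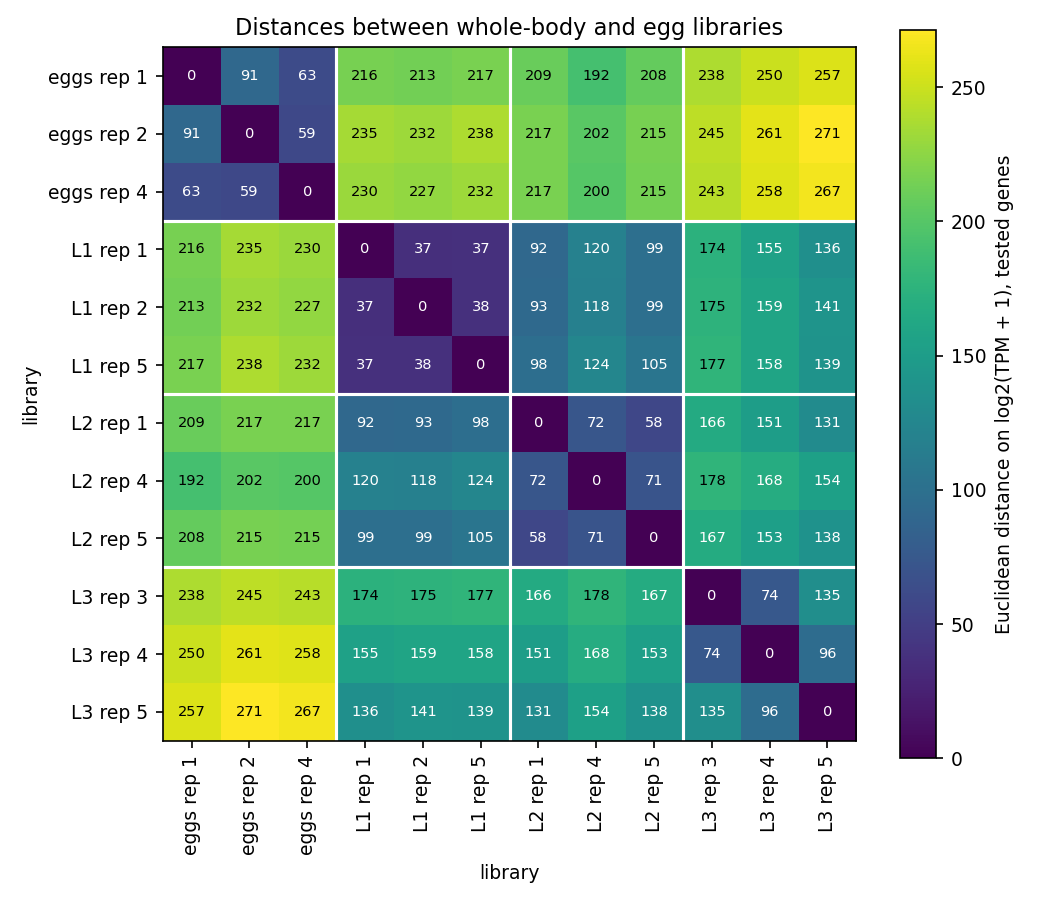
Euclidean distance on log2(TPM + 1) over 10957 tested genes between the libraries of eggs, L1, L2 and L3 (both axes), with the rounded distance in each cell. L3 replicate 5 is closer to the L2 and L1 libraries than L3 replicates 3 and 4 are, and the L1 libraries lie closest together.

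Of the 10957 genes tested, 763 (6.96%) were higher and 3358 (30.6%) lower in L3 than in L2 larvae (limma on log2(TPM + 1), Benjamini-Hochberg adjusted p below 0.05). All L3 libraries lay above all L2 libraries in 1149 genes (10.5%) and below them in 4738 genes (43.2%), which makes 53.7% without overlap. Both the call and the absence of overlap held for 762 higher genes (6.95%) and 3356 lower genes (30.6%). The median difference over all tested genes was -0.42 on the log2 scale, so the typical gene had a lower TPM in L3. A rescaling of each library by its median-of-ratios factor brought this median to -0.02, and 1752 genes (16%) were higher and 1773 (16.2%) lower. Both scalings shared 759 of the higher and 1773 of the lower genes, and 0 genes changed direction among the calls. Without L3 replicate 5, 1577 genes passed as higher and 3637 as lower. Without L3 replicate 4, the counts were 401 and 2012.

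The genes called higher made up a large part of the L3 transcriptome. They took 44.8%, 37.6% and 26.5% of TPM in L3 replicates 3, 4 and 5, against 8.00%, 8.80% and 8.33% in L2 replicates 1, 4 and 5. These genes were chosen as higher in the same libraries, so the direction of this contrast follows from the choice. The median difference was 1.66 among genes called higher and -1.18 among genes called lower. A difference of at least 3 on the log2 scale was seen in 159 genes called higher and 162 called lower. Among these 159 genes, 89 (56.0%) had their highest L4 level, above 10 TPM, in fat body, compared with 9.55% of all tested genes. Among the 162 genes, 123 (75.9%) did not exceed 10 TPM in any L4 tissue, compared with 24.7% of all tested genes.

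**Figure D2:**
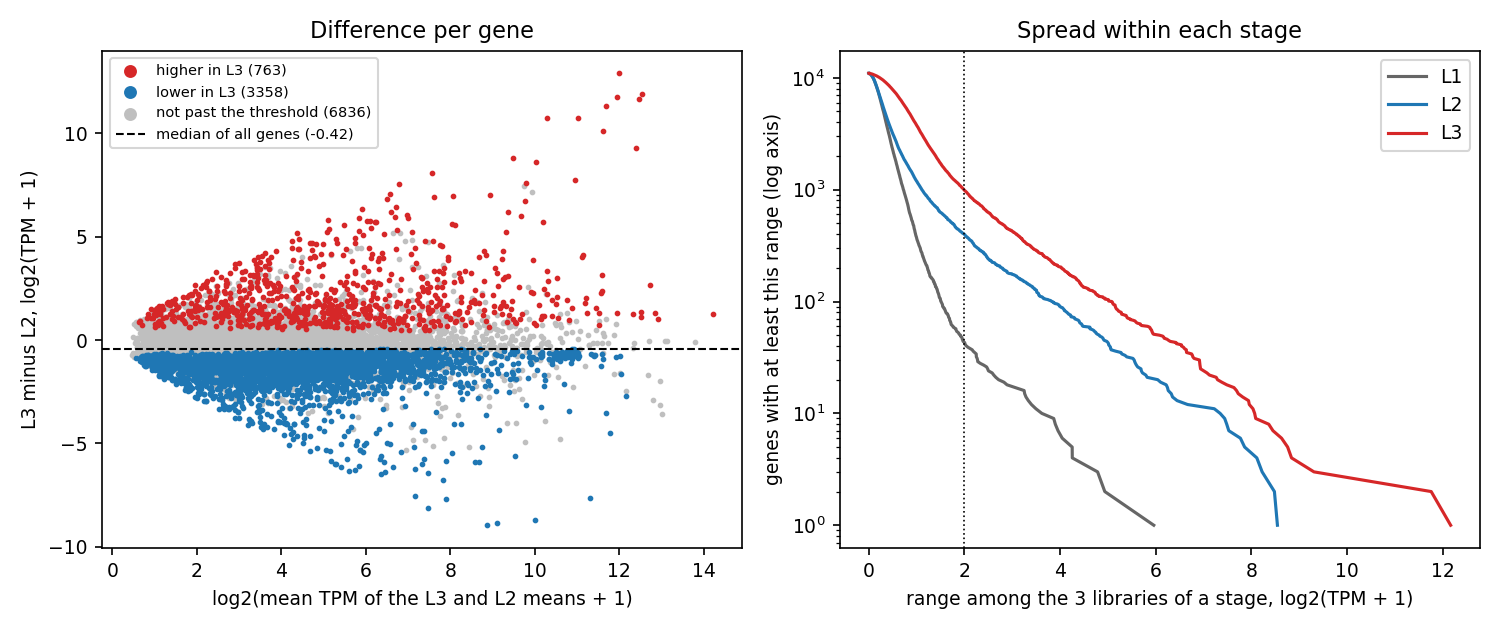
Left, L3 minus L2 difference of each tested gene on the log2(TPM + 1) scale against its mean level, coloured by the limma call; 763 genes were higher and 3358 lower in L3, and the dashed line marks the median of -0.42. Right, number of genes (log axis) whose range among the 3 libraries of a stage is at least the value on the x axis; at a range of 2 the counts are 43 for L1, 397 for L2 and 986 for L3.

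The 10 largest increases were in genes of at most 30.2 TPM in any L2 library, the level of LdNA_4671 in L2 replicate 4. LdNA_27771 (chromosome 14, 4981997 to 4983383) had 10002, 10188 and 4307 TPM in L3 replicates 3, 4 and 5 and 0 TPM in each L2 library. All L3 values lay far above the floor of 3 read pairs in a library, 0.724 TPM for this gene, so the mean was at least 11276-fold higher in L3 (limma adjusted p = 4.86e-05). Its levels in L4 tissues were at most 40.1 TPM, in the hindgut.

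The neighbouring genes LdNA_27770 and LdNA_27768 on chromosome 14 behaved in the same way. LdNA_27770 (4976738 to 4979270) had 6633, 7638 and 5444 TPM in L3, against 0.974, 1.80 and 2.06 TPM in L2 replicates 1, 4 and 5, a difference of 11.31 ± 0.23 (SE; limma adjusted p = 2.16e-05). LdNA_27768 (4943805 to 4948000) had 6214, 3612 and 2694 TPM in L3, against 2.12, 0.249 and 2.24 TPM in L2 (10.72 ± 0.47; adjusted p = 0.000405). The 3 genes are short, with exon lengths of 297, 279 and 288 bases for LdNA_27771, LdNA_27770 and LdNA_27768. Their reads could be shared if their sequences were near-identical, which was not tested.

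Another cluster, on chromosome 12, held genes that were also abundant in the L4 fat body. LdNA_23402 (5935442 to 5944964) had 17728, 11273 and 6773 TPM in L3, against 2.22, 0.770 and 3.48 TPM in L2 (difference 11.87 ± 0.46; limma adjusted p = 0.000355). Its median was 51946 TPM in white and 43702 TPM in yellow L4 fat body. LdNA_23403 (5957049 to 5965433) had 9490.4, 6634 and 7438 TPM in L3, against 1.54, 0.428 and 2.02 TPM in L2, and 18487 TPM in white L4 fat body.

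LdNA_23405 (5987372 to 6003702), of the same cluster, had 4360.4, 4857 and 2523 TPM in L3, against 4.35, 78.2 and 12.1 TPM in L2. Its difference was 7.73 ± 0.95 (limma adjusted p = 0.00265). The exon lengths of LdNA_23402, LdNA_23403 and LdNA_23405 were almost the same, at 2325, 2341 and 2330 bases. The gaps between them were 12084 and 21938 bases. Whether their sequences are near-identical, so that reads could be shared, was not tested. LdNA_23405 was 998 TPM in yellow and 3.17 TPM in white fat body, unlike LdNA_23402 and LdNA_23403. It was the most abundant testes-list gene in these libraries although its highest dissected level was in larval fat body.

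LdNA_4671, LdNA_19848 and LdNA_29325 also had their highest dissected level in L4 fat body. LdNA_4671 (chromosome 2, 56090079 to 56101085) had 13730.3, 9931 and 8715 TPM in L3, against 7.84, 30.2 and 17.2 TPM in L2 (9.27 ± 0.46; limma adjusted p = 0.000529), and 24154 TPM in white and 24602 TPM in yellow L4 fat body. LdNA_19848 (chromosome 10, 5475923 to 5485818) had 9079, 7360.1 and 2444 TPM in L3, against 7.84, 1.90 and 3.91 TPM in L2. LdNA_29325 (chromosome 15, 11957963 to 11970500) had 3642, 2807 and 1003 TPM in L3, against 0.371, 0.131 and 0.392 TPM in L2. In all 3 genes each L3 value was far above each L2 value, and L3 replicate 5 was the lowest L3 library.

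LdNA_22812 (chromosome 11, 41093518 to 41096914) rose most unevenly among these genes. It had 22459, 11226 and 284 TPM in L3 replicates 3, 4 and 5, against 0.284, 0.0499 and 0.649 TPM in L2 (11.64 ± 1.57; limma adjusted p = 0.00326). It was the most abundant L4 fat body gene among the genes named here, at 88698 TPM in white and 83911 TPM in yellow fat body. LdNA_5610 (chromosome 3, 6877297 to 6885470) had 2429.7, 1595 and 252 TPM in L3, against 1.18, 1.49 and 0.996 TPM in L2. No dissected tissue exceeded 11.2 TPM for this gene, the level in L4 hemolymph.

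The most abundant genes of L3 larvae mixed these newly expressed genes with genes of all stages. LdNA_19511 (chromosome 9, 51722300 to 51723950) had 29717, 28994 and 22815 TPM in L3, against 10456, 12319.7 and 11020.3 TPM in L2 (1.26 ± 0.17; limma adjusted p = 0.00337). It had 10292 to 13499.6 TPM in eggs and 11259 to 11963 TPM in L1, close to its L2 values. This call did not pass in the fit without a filter on low values (adjusted p = 0.0951). LdNA_8039 (chromosome 4, 14609475 to 14616896) had 17331, 11884 and 6183 TPM in L3, against 1684, 1727 and 1726 TPM in L2 (2.66 ± 0.37; adjusted p = 0.00342).

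The 10 largest decreases followed another course. In 8 of them expression was high in eggs, low in L1, high again in L2 and near 0 in L3. LdNA_9776 (chromosome 5, 2985732 to 2987610) had 0 TPM in each L3 library, against 117, 2893 and 281 TPM in L2 replicates 1, 4 and 5. It had 9136, 478 and 3147 TPM in the egg libraries and 2.12, 4.31 and 14.7 TPM in the L1 libraries. With the floor of 3 read pairs in a library, 0.594 TPM for this gene, the mean was at least 1846-fold lower in L3 (limma adjusted p = 0.00274), and the median was 0 TPM in every dissected tissue.

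LdNA_12107 (chromosome 6, 8285925 to 8293310) likewise had 0 TPM in each L3 library, against 122, 652 and 280.3 TPM in L2, at least 1270-fold lower in L3 (limma adjusted p = 0.0011). LdNA_14454 (chromosome 7, 16261357 to 16273299) had 0.551, 0.401 and 0.719 TPM in L3, against 390.4, 1768 and 654 TPM in L2 (-8.95 ± 0.53; adjusted p = 0.000859). LdNA_30580, a gene of 1 exon on chromosome 16 (9095060 to 9095827), had 0, 0.0936 and 0 TPM in L3, against 57.6, 1237 and 137 TPM in L2. In LdNA_12107, LdNA_14454 and LdNA_30580, L2 replicate 4 was highest, the L1 libraries were at most 0.522 TPM, and no dissected tissue exceeded 1.29 TPM.

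LdNA_23641, LdNA_23868, LdNA_8894 and LdNA_30827 completed this group, with differences of -7.52, -6.77, -6.49 and -6.44. LdNA_23868 (chromosome 12, 18647083 to 18649372) showed the widest spread within L2, with 0.681, 0.442 and 0 TPM in L3, against 36.6, 1260.3 and 65.3 TPM in L2. The groups did not overlap in any of the 4 genes, and L2 replicate 4 was the highest L2 library in each.

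The same course was counted over all genes with a limma call and a decrease of at least 3, by a rule set after these values were seen: L2 and egg means at least 4 times the L1 mean, each with 1 TPM added. Of the 162 genes, 81 met it, as did 152 of all 10957 tested genes. The median level of the 81 was 0.220, 0.189 and 0.174 TPM in L3 replicates 3, 4 and 5, against 16.5, 88.3 and 27.9 TPM in L2 replicates 1, 4 and 5. The median was 0.753 to 0.843 TPM in L1 and 191 to 207 TPM in eggs. L2 replicate 4 was the highest L2 library in 77 of the 81 genes, compared with 4604 of all 10957 tested genes. Both the choice of the 162 genes and the rule used the L2 values, so the counts of 81 and 77 follow in part from the choice. Of the 81, 23 were at most 1 TPM in every dissected tissue.

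The other 2 of the largest decreases differed from this group. LdNA_29991 (chromosome 15, 30819140 to 30824648) had 5.50, 2.28 and 3.45 TPM in L3, against 1310.2, 3167 and 1683 TPM in L2 (-8.71 ± 0.40; limma adjusted p = 0.000422). It had 3.69 to 5.68 TPM in L1 but 0 TPM in each egg library, and 162 TPM in the L4 hindgut, although the adult and larval libraries together placed it in the ovaries list. LdNA_11544 (chromosome 5, 54900681 to 54907549) had 1.71, 5.79 and 726 TPM in L3, against 5866, 4072 and 4552 TPM in L2 (-7.65 ± 2.00; adjusted p = 0.0268). It had 4211 to 4769 TPM in L1 and at most 0.133 TPM in any dissected tissue. Its L3 values differed 8.07 on the log2 scale among themselves, and the call was lost after rescaling (adjusted p = 0.0527).

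**Figure D3:**
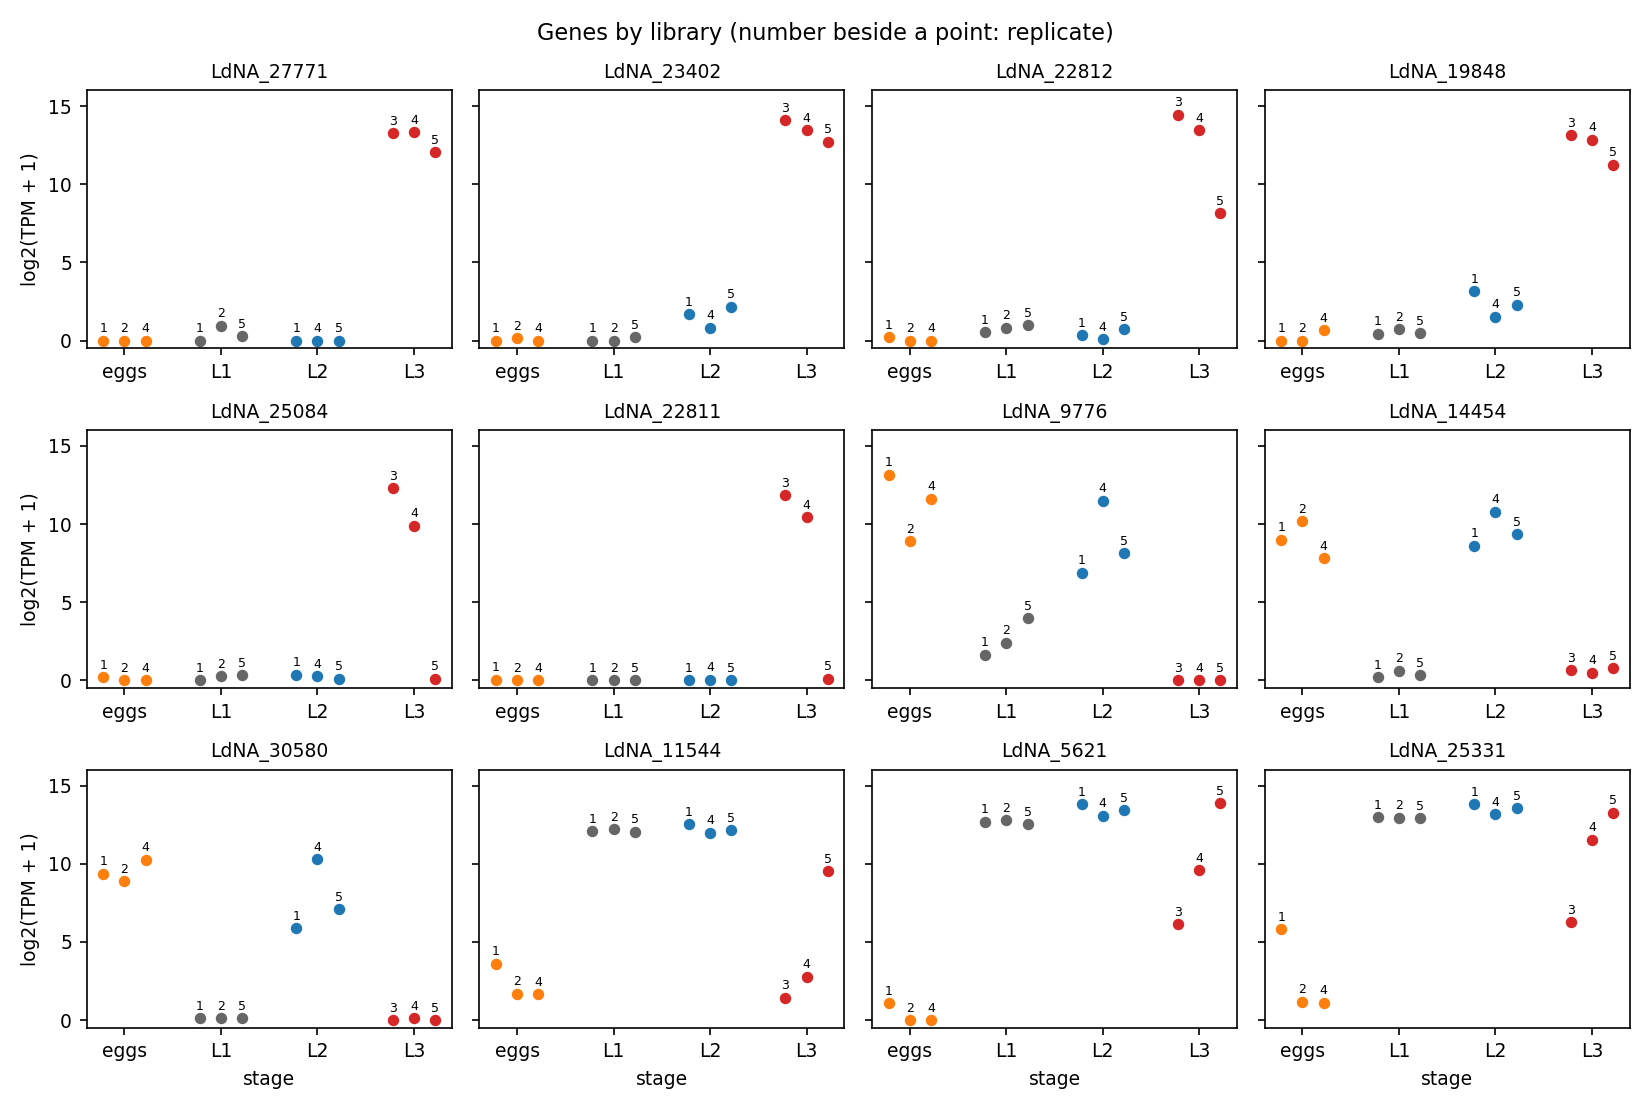
Levels of 12 genes as log2(TPM + 1) in each library of eggs, L1, L2 and L3 (x axis), with the replicate number beside each point. The first 6 genes were low before L3, LdNA_9776, LdNA_14454 and LdNA_30580 were high in eggs and L2 only, and LdNA_11544, LdNA_5621 and LdNA_25331 were high in L1, L2 and L3 replicate 5. LdNA_5621 and LdNA_25331 also had 766 and 2986 TPM in L3 replicate 4.

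The spread within L3 was broad. A range of at least 1 was seen in 3761 genes in L3, against 1189 in L2. The range among the 3 libraries was at least 2 on the log2 scale, a 4-fold difference, in 986 genes in L3, against 397 in L2, 43 in L1 and 326 in eggs. The median range was 0.77 in L3, 0.30 in L2 and 0.28 in L1, and the summed variance within L3 was 2.42 times that within L2. A gene was counted as carrying the spread when its range was at least 2 in L3 and under 1 in L2. This rule gave 695 genes, 6.34% of those tested, which held 41.3% of the summed variance within L3. The rule gave 152 genes without L3 replicate 5 and 260 without L3 replicate 3. LdNA_17412, with a range of 2.00 in L3, was the last gene inside the limit, and LdNA_16186, also 2.00 after rounding (1.997), was the first outside. Because these genes were chosen by their own values, they are described without a test.

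The L3 libraries formed a graded series in most of the 695 genes. Replicate 4 was the middle library in 603 of them, replicate 3 in 60 and replicate 5 in 32. Over all 10791 tested genes with 3 distinct L3 values, replicate 4 was in the middle in 7099. In L2 no library held that place to this degree, since replicate 5 was in the middle in 4403, replicate 1 in 3412 and replicate 4 in 3060 of 10875 genes.

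In 290 of the 695 genes (41.7%), L3 replicate 5 was low and stood apart from the other L3 libraries. Their median log2(TPM + 1) was 5.78, 4.97 and 2.62 in L3 replicates 3, 4 and 5, against 2.49, 2.49 and 2.49 in L2 replicates 1, 4 and 5. L3 replicate 5 therefore sat near the L2 level in these genes, which L3 replicates 3 and 4 exceeded. Of the 290, 84 averaged below 1 TPM in L2. The limma test passed 81 as higher and 2 as lower, beside 6.96% and 30.6% of all tested genes. These calls rest on the same L3 values that placed the genes in this pattern. The highest L4 level was in fat body for 112 (38.6%), compared with 9.55% of all tested genes.

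The widest ranges of this kind spanned 4 genes that were near 0 in L3 replicate 5 and highest in L3 replicate 3. LdNA_25084 (chromosome 13, 3827924 to 3833184) had 4944, 951 and 0.0782 TPM in L3 replicates 3, 4 and 5, against 0.275, 0.218 and 0.0726 TPM in L2. Its L4 midgut level was 31889 TPM, and no other L4 tissue exceeded 3.02 TPM. LdNA_25085, 5125 bases away, had 602, 67.4 and 0.320 TPM in L3, against 0, 0 and 0.178 TPM in L2, and 448 TPM in L4 midgut. Both genes were thus at the L2 level in L3 replicate 5, and neither passed the limma test (adjusted p = 0.104 for LdNA_25084 and 0.0953 for LdNA_25085).

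LdNA_22811 (chromosome 11, 41081229 to 41088642), 4875 bases from LdNA_22812, had 3709, 1399 and 0.0725 TPM in L3, against 0, 0.0337 and 0 TPM in L2, and 8122 TPM in white L4 fat body (limma adjusted p = 0.0931). LdNA_9607 (chromosome 4, 64908728 to 64910982) had 905, 151 and 1.59 TPM in L3, against 1.87, 0.985 and 2.22 TPM in L2, and 1685 TPM in yellow but 12.2 TPM in white fat body (adjusted p = 0.109). Without L3 replicate 5, LdNA_25084, LdNA_25085, LdNA_22811 and LdNA_9607 all passed as higher, with differences of 10.84, 7.59, 11.14 and 7.14.

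In 162 genes (23.3%), L3 replicate 3 was low. Their median log2(TPM + 1) was 4.22, 6.53 and 7.20 in L3 replicates 3, 4 and 5, against 7.15, 7.10 and 7.21 in L2 replicates 1, 4 and 5. Here too L3 replicate 5 was close to L2, and the L1 median was 6.98. Of the 162 genes, 116 were in the L1 list and 59 in the midgut list, both defined below, compared with 8.96% and 3.06% of all tested genes.

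LdNA_25331 (chromosome 13, 11057994 to 11062925) had 76.1, 2986 and 9882 TPM in L3, against 14288, 9092 and 11909.9 TPM in L2 (limma adjusted p = 0.188). Its neighbour LdNA_25330, of the same exon length of 414 bases and 5610 bases away, had 7.50, 98.1 and 1039 TPM in L3, against 3372, 1952 and 2822 TPM in L2 (adjusted p = 0.0589). LdNA_25331 had 7781 to 8028 TPM and LdNA_25330 had 2089.7 to 2312 TPM in L1, and both had at most 5.08 TPM in any dissected tissue. LdNA_29716 (chromosome 15), a midgut-list gene of adults, had 5.40, 103 and 696 TPM in L3, against 1099, 1393 and 1214 TPM in L2 (adjusted p = 0.0912). LdNA_34013 (chromosome 18) was different, with 0.908, 55.1 and 184 TPM in L3 on both sides of 10.5, 12.5 and 20.9 TPM in L2.

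In 124 genes (17.8%), L3 replicate 5 was high, with medians of 2.46, 3.37 and 5.34 in L3 replicates 3, 4 and 5, against 5.68, 5.82 and 5.82 in L2. LdNA_5621 (chromosome 3, 7299100 to 7301310) had 69.2, 766 and 14837 TPM in L3, against 14506, 8667 and 10992 TPM in L2 (limma adjusted p = 0.161). LdNA_15652 (chromosome 7, 53283965 to 53290580) had 1.46, 1.16 and 385 TPM in L3, against 339, 329.7 and 328 TPM in L2 (adjusted p = 0.106). LdNA_16727 (chromosome 8) had 6.64, 107 and 1872 TPM in L3, against 2139, 1293 and 1864 TPM in L2, but it overlaps a gene on the other strand, and the library preparation did not keep strand. In these genes L3 replicate 5 fell within or near the L2 values, whereas L3 replicates 3 and 4 were far below them. L3 replicate 3 was high in the remaining large pattern, 102 genes, and replicate 4 was high in 9 and low in 8. The medians of those 102 genes were 4.71, 2.59 and 1.83 in L3 replicates 3, 4 and 5. In L2 replicates 1, 4 and 5 they were 2.54, 2.53 and 2.56. In this pattern L3 replicate 4 was near the L2 level and L3 replicate 5 was below it.

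**Figure D4:**
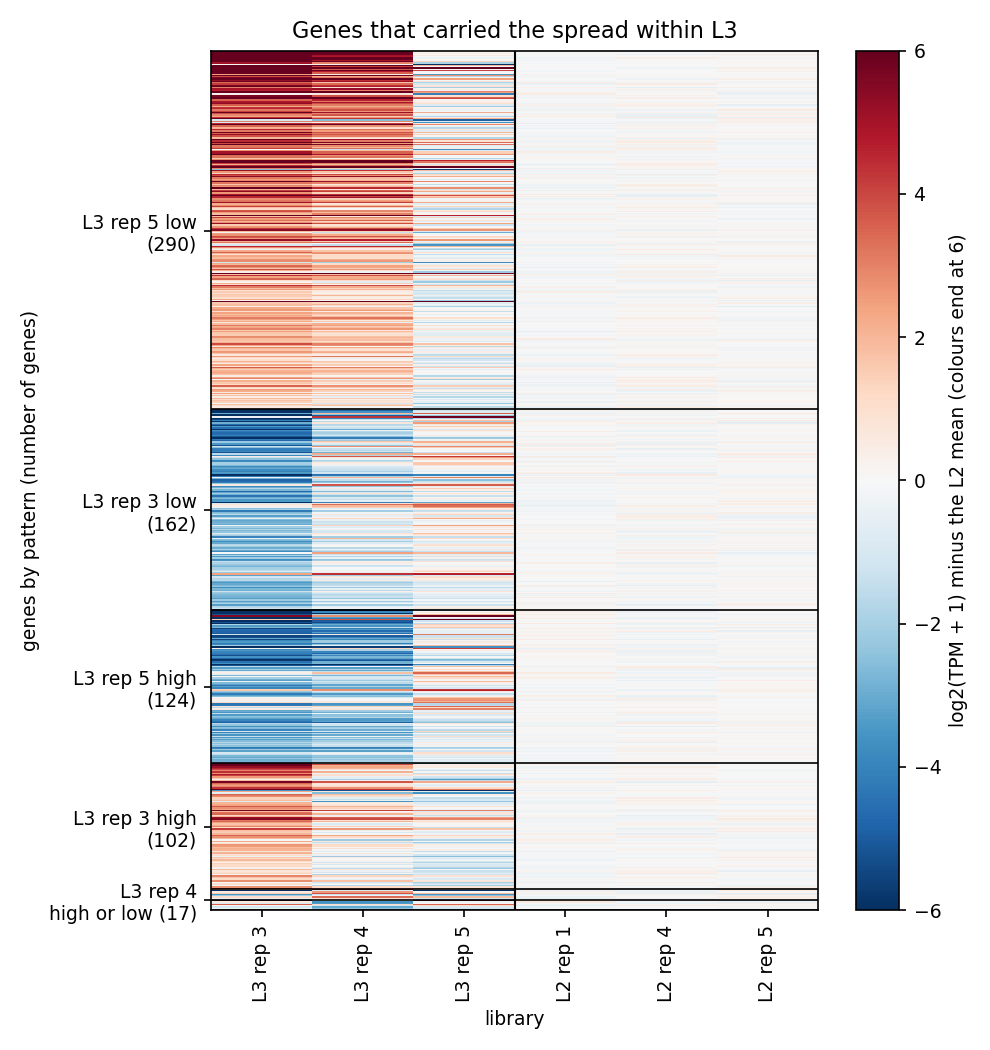
The 695 genes with a range of at least 2 in L3 and under 1 in L2, grouped by the L3 library that stands apart (y axis), in the libraries of L3 and L2 (x axis). Colour is log2(TPM + 1) minus the L2 mean of the gene; L3 replicates 3 and 4 are coloured strongly in most patterns, and L3 replicate 5 is close to the L2 mean in many of the genes of the 3 largest patterns.

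The rule for spread genes did not use tissue or stage lists, but a range of at least 2 cannot be reached by genes of very low TPM. The median of the L3 means was 31.3 TPM in spread genes and 10.4 TPM in all tested genes. The lists and the highest L4 tissue also required more than 10 TPM, and the shares below were not matched for level. Of the 695, 32.4% were in the L1 list and 12.7% in the midgut list, compared with 8.96% and 3.06% of all tested genes. Only 2.30% were in the list of broadly expressed genes, compared with 16.4%. Their highest L4 level was in fat body for 32.4%, compared with 9.55%, and in midgut for 23.0%, compared with 11.4%. Their median exon length was 1241 bases, compared with 1476 bases over all tested genes.

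Spread genes were often neighbours. Of the 695, 195 (28.1%) lay next to another spread gene among the tested genes, compared with 1114 of the 10262 other tested genes (10.9%), and 20 runs of at least 3 were found. In the 5 genes from LdNA_34066 to LdNA_34072 on chromosome 18 (20510640 to 20538894), L3 replicate 3 was low in each. Their summed level was 322, 2037 and 4529.7 TPM in L3 replicates 3, 4 and 5, against 3495, 2387 and 3442 TPM in L2. The 3 genes from LdNA_25045 to LdNA_25047 on chromosome 13 (2913717 to 2960216) summed to 2071, 10269.9 and 23361 TPM in L3, against 8954, 9388 and 8252 TPM in L2. Chromosome 18 had the largest share of spread genes, 10.0% of its tested genes, and chromosome 17 the smallest, 3.96%.

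Tissue lists were taken from 47 dissected libraries of 9 tissues, as genes with a tissue-specificity index tau above 0.85 and a median above 10 TPM in the top tissue. The midgut list held 335 tested genes. Of these, 48 (14.3%) were called higher and 56 (16.7%) lower in L3, against 6.96% and 30.6% of all tested genes, with a median difference of -0.31 against -0.42. After rescaling, 66 (19.7%) were higher and 19 (5.67%) lower, beside 16.0% and 16.2% of all tested genes, and the median was 0.11. The list took 6.64%, 13.0% and 18.7% of TPM in L3 replicates 3, 4 and 5, against 14.4%, 12.0% and 14.5% in L2 replicates 1, 4 and 5, so the L3 libraries lay on both sides of L2. Spread genes made up 26.3% of the list. This order depended on how the list was built. The midgut list made from L4 tissues only (270 tested genes, 42 higher and 39 lower) took 2.44%, 2.27% and 2.33% of TPM in L3, against 1.78%, 1.65% and 1.93% in L2, without overlap.

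The most abundant midgut gene, LdNA_30058 (chromosome 16, 124093 to 132666), had the same order in L3. It had 3925, 17121 and 22409 TPM in L3, against 20178, 5385 and 16841 TPM in L2, and the groups overlapped (limma adjusted p = 0.936). It had 21454 TPM in L4 midgut and at most 277 TPM in the other L4 tissues.

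The hemolymph list (70 tested genes) had the highest median difference of these 9 tissue lists, 0.69, whereas among lists made from L4 tissues only its median was 0.21 and that of fat body 0.52. Of its genes, 11 were called higher (15.7%) and 2 lower (2.86%), beside 6.96% and 30.6% of all tested genes. After rescaling, 36 (51.4%) were higher and 1 (1.43%) lower, beside 16.0% and 16.2%. The list took 2.64%, 1.42% and 0.157% of TPM in L3 replicates 3, 4 and 5, against 0.0690%, 0.0812% and 0.0948% in L2. In L3 replicates 3 and 4 most of this share came from LdNA_22812, whose highest dissected level was in larval fat body. Without it the list took 0.389%, 0.301% and 0.128% in L3, against 0.0690%, 0.0812% and 0.0947% in L2, still without overlap. The direction depended on how the list was built: the hemolymph list made from L4 tissues only (50 tested genes, 3 higher and 5 lower) took 0.102%, 0.168% and 0.323% in L3, against 0.466%, 0.576% and 0.538% in L2.

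The fat body list (30 tested genes) had 11 genes called higher (36.7%) and 5 lower (16.7%), beside 6.96% and 30.6% of all tested genes. Its median difference was -0.42, against -0.42 over all tested genes. After rescaling, 11 (36.7%) were higher and 2 (6.67%) lower, beside 16.0% and 16.2% of all tested genes. The most abundant member of the list, LdNA_21542 (chromosome 11, 4335842 to 4348390), had 92.8, 194 and 145 TPM in L3, against 10.3, 9.55 and 16.0 TPM in L2 (3.46 ± 0.33; limma adjusted p = 0.00162). That list pooled adult and larval fat body. With the 2 libraries kept that the authors removed, its median difference was 0.50, from 36 tested genes. It then took 2.72%, 1.35% and 0.0823% of TPM in L3, against 0.0463%, 0.0463% and 0.0529% in L2. Most of this share in L3 replicates 3 and 4 came from LdNA_22812 (22459, 11226 and 284 TPM in L3), which moved from the hemolymph list. The hemolymph list then took 0.391%, 0.302% and 0.129% in L3. When lists were built from L4 tissues only, the fat body list held 129 tested genes, with a median difference of 0.52. Of these, 37 (28.7%) were higher and 23 (17.8%) lower, beside 6.96% and 30.6% of all tested genes. The list from L4 tissues took 0.602%, 0.615% and 0.619% of TPM in L3, against 0.732%, 0.789% and 0.797% in L2.

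The other tissue lists had lower calls in 17.2% to 29.2% and higher calls in 6.90% to 24.4% of their genes, beside 30.6% and 6.96% of all tested genes. The counts higher and lower were 14 and 19 of 109 for Malpighian tubules, 4 and 10 of 53 for hindgut, 22 and 22 of 90 for aedeagus, 2 and 5 of 29 for genital ducts, 7 and 14 of 57 for ovaries and 5 and 21 of 72 for testes. After rescaling, 16.0% of all tested genes were higher and 16.2% lower. More genes were then higher than lower for Malpighian tubules (20 and 7, or 18.3% and 6.42%) and aedeagus (24 and 13, or 26.7% and 14.4%). The ovaries list, with 9 and 8 (15.8% and 14.0%), stood near the shares of all tested genes. LdNA_27768 of the aedeagus list had 1169 TPM in yellow L4 fat body. The most abundant hindgut-list gene, LdNA_22896 (chromosome 11), had 964, 679 and 766 TPM in L3, against 872, 837 and 1112 TPM in L2, and did not pass the test (limma adjusted p = 0.387). LdNA_2239 (chromosome 1), highest of the Malpighian tubule list, had 1587, 2751 and 2359.9 TPM in L3, against 1334, 2182 and 595 TPM in L2 (adjusted p = 0.211). LdNA_10668 of the aedeagus list and LdNA_27667 of the genital ducts list were also the highest of their lists and did not pass (adjusted p = 0.752 and 0.0964).

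Stage lists were built from eggs and L1 libraries, by a median above 10 TPM, at least 4 times the other stage with 1 TPM added, without overlap. The egg list (799 tested genes) had 35 genes called higher (4.38%) and 274 lower (34.3%), beside 6.96% and 30.6% of all tested genes, and its median difference was -0.72. It took 1.95%, 1.30% and 0.680% of TPM in L3, against 1.42%, 4.85% and 1.76% in L2 replicates 1, 4 and 5, so L2 replicate 4 stood above the other 5 libraries. Its most abundant gene, LdNA_14137 (chromosome 7, 5470645 to 5480846), had 412, 201 and 88.8 TPM in L3, against 1153, 3157 and 1793 TPM in L2 (-3.26 ± 0.62; limma adjusted p = 0.00925).

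The L1 list (982 tested genes) had 149 genes called higher (15.2%) and 189 lower (19.2%), beside 6.96% and 30.6% of all tested genes, with a median difference of -0.29. Rescaling turned this median to 0.15, with 219 genes (22.3%) higher and 57 (5.80%) lower, beside 16.0% and 16.2% of all tested genes. Its share of TPM was 24.3%, 33.3% and 43.9% in L3 replicates 3, 4 and 5, against 38.1%, 30.4% and 36.3% in L2, and 40.7% to 42.2% in L1. Of its genes, 245 were also in the midgut list. The list of genes above 10 TPM in L1 and at most 1 TPM in every dissected tissue (53 tested) had 12 higher (22.6%) and 13 lower (24.5%), among them LdNA_11544.

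The list of broadly expressed genes held those above 10 TPM in each of the 47 dissected libraries. Of 1792, 44 (2.46%) were called higher and 897 (50.1%) lower, beside 6.96% and 30.6% of all tested genes. The median difference was -0.59, against -0.42 over all tested genes. After rescaling, 245 (13.7%) were higher and 350 (19.5%) lower, beside 16.0% and 16.2% of all tested genes. The rescaled median was -0.12, and the share of lower calls was smaller than in the egg list (24.3%). The broadly expressed genes took 31.9%, 31.2% and 29.1% of TPM in L3, against 42.7%, 45.2% and 43.7% in L2 and 40.0% to 41.6% in L1. The most abundant, LdNA_13787 (chromosome 6), had 4341, 4661 and 4238 TPM in L3, against 5652, 6119 and 5613 TPM in L2, without overlap but short of the threshold (limma adjusted p = 0.0604). Its difference was -0.39 as deposited and 0.09 after rescaling.

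**Figure D5:**
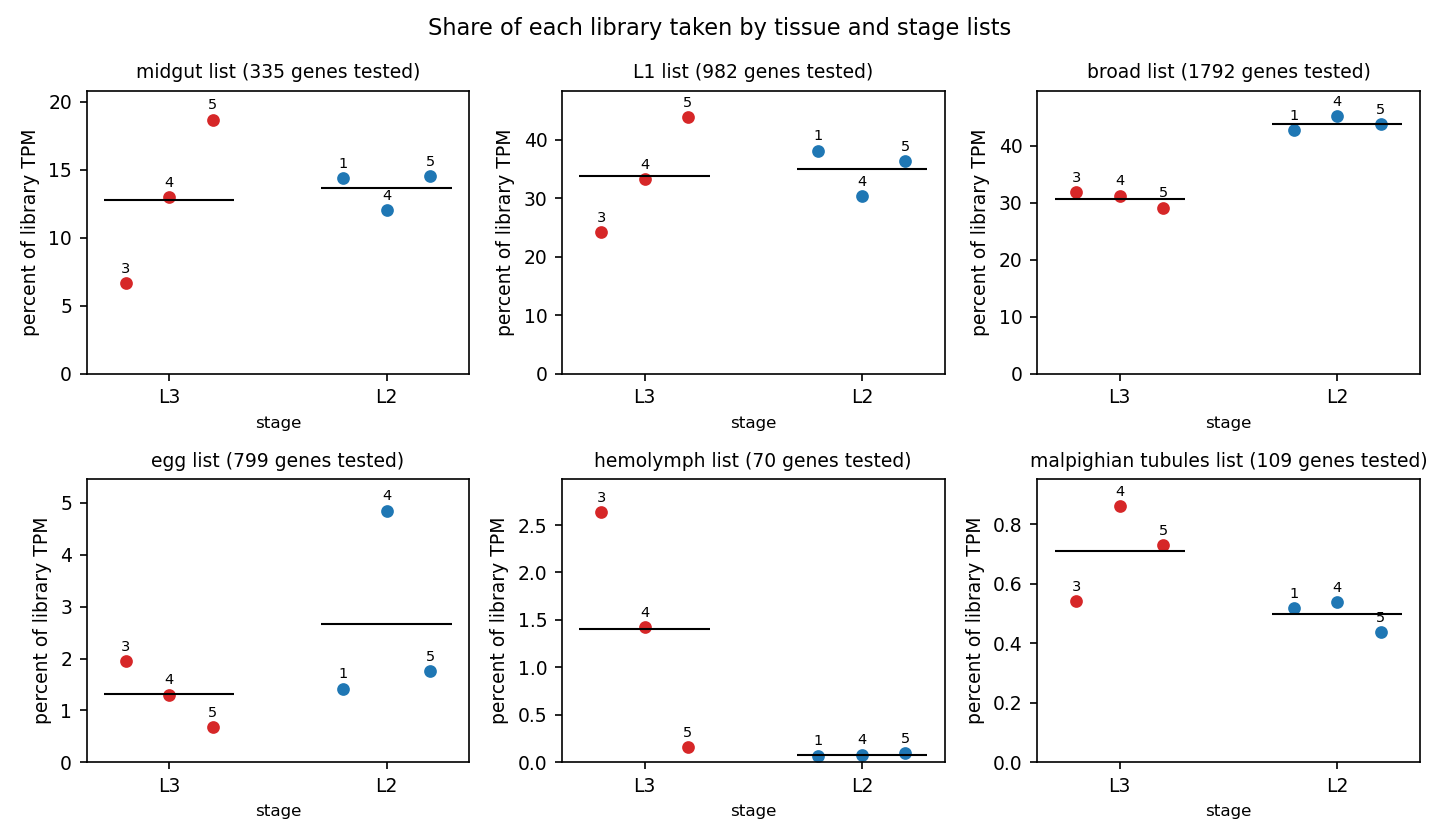
Percent of library TPM taken by 6 gene lists (y axes from 0) in L3 and L2 libraries (x axis), with the replicate number at each point and a line at the mean. In the midgut and L1 lists L3 replicate 3 lies below and L3 replicate 5 above the L2 libraries, and in the broad list all L3 libraries lie below the L2 libraries.

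Genes low in all L2 libraries with a high L3 library, and genes high in all L2 libraries with a low L3 library, were listed after their values were seen. In 29 genes all L2 libraries were below 1 TPM and at least 1 L3 library was above 100 TPM. Together they had 51054, 29596 and 7349 TPM in L3 replicates 3, 4 and 5, against 6.41, 6.51 and 6.39 TPM in L2 replicates 1, 4 and 5. L3 replicate 3 was highest in 23 and L3 replicate 5 lowest in 25 of the 29, compared with 6893 and 6768 of all 10957 tested genes. Of the 29, 20 passed the limma test and 25 were spread genes, compared with 37.6% and 6.34% of all tested genes. Because the 29 were chosen by these same values, these counts follow in part from the choice. L3 replicate 5 was below 10 TPM in 15 of the 29. In L4 tissues, 24 exceeded 10 TPM in yellow and 18 in white fat body, 11 in hindgut, 10 in midgut and 3 in hemolymph.

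A few of these 29 genes ran the other way. LdNA_14356 (chromosome 7) had 2.33, 13.8 and 141 TPM in L3, against 0.0476, 0.1005 and 0.251 TPM in L2 (limma adjusted p = 0.0463, and 0.0653 after rescaling). LdNA_15357 (chromosome 7) had 46.2, 6.16 and 713 TPM in L3, against 0.1099, 0 and 0 TPM in L2, and its highest dissected level, 4834 TPM, was in adult male fat body. In both genes L3 replicate 5 was the highest library.

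In 44 genes all L2 libraries were above 100 TPM and at least 1 L3 library was below 10 TPM. Together they had 709.7, 2019 and 8325 TPM in L3, against 29897, 34197 and 29092 TPM in L2. L3 replicate 3 was lowest in 30 and L3 replicate 5 highest in 31 of the 44, compared with 2127 and 2371 of all 10957 tested genes. Of the 44, 30 averaged over 100 TPM in L1. L3 replicate 5 was above 100 TPM in 17 of the 44. The limma test passed in 26 of the 44 and 10 were in the midgut list, compared with 37.6% and 3.06% of all tested genes. Because the 44 were chosen by the values tested, the number of calls follows in part from the choice. In every dissected tissue, 7 of the 44 were at most 1 TPM. LdNA_4595 (chromosome 2), a midgut-list gene with 13765 TPM in adult female midgut, had 2.96, 8.98 and 40.8 TPM in L3, against 1209.6, 312 and 890.3 TPM in L2, and passed as lower. LdNA_10942 (chromosome 5) had 6.54, 27.7 and 114 TPM in L3, against 1575, 1216 and 1503 TPM in L2, and also passed as lower.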

How the data were processed

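The authors trimmed reads with Trimmomatic, checked them with FastQC 0.11.9, aligned them with STAR to a chromosome-level assembly and counted read pairs per gene with featureCounts (Subread 2.0.5). The deposited values are TPM, with the genes filtered by the authors at TPM above 1 in at least 2 libraries. Coordinates are those of the deposited table, whose build the sources used here do not name. The deposited gene length and TPM gave whole read pairs for all values (tolerance 0.01), taking the smallest product of TPM and length above 0 in a library as 1 read pair. Chi-square per gene between replicates was 176.7 to 540.7 in L3 and 34.5 to 110.8 in L2, so no pair of replicates agreed within sampling noise.

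L3 minus L2 was fitted with limma 3.58.1 (R 4.3.3; lmFit, then eBayes with trend) on log2(TPM + 1), so fold changes of low genes are understated. The filter was TPM above 1 in at least 2 of 6 libraries and the Benjamini-Hochberg threshold was 0.05. The fit was tested on simulated data with known changes. The share of false calls stayed near the threshold when the spread was drawn from the fitted prior, equal or unequal between stages, but was well above it when each gene kept its own spread per stage, so the threshold may understate the false calls here. Changes of 1 on the log2 scale were rarely recovered. Tau lists left out the 2 libraries that the authors removed, taken to be hindgut female replicate 5 and yellow fat body replicate 4, so yellow fat body rests on 1 library. Tables and figures were made with Python 3.11.15, pandas 2.3.3, scipy 1.17.1 and matplotlib 3.10.9.

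Genes were named by rule: the 10 largest non-overlapping calls in each direction, the 4 widest L3 ranges in each of the 3 most frequent patterns, the most abundant member of each list and the 5 most abundant genes in L3. The stages, lists and rules were chosen with earlier results of these data known. Alternatives changed the pseudocount, scaling, filter, model, lists and libraries. The floor of 3 read pairs for genes at 0 covers counting error only.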

Additional observations from a re-analysis of the deposited data

How the results depend on the processing

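The main counts were 763 genes higher and 3358 lower. Rescaling by median-of-ratios factors gave 1752 and 1773, all 12 whole-body libraries in the fit gave 1161 higher, and a replicate block on the shared replicate numbers 4 and 5 gave 380 and 1458. The labels do not say that these numbers mark a batch, and deviations of equally numbered libraries correlated at -0.06 and -0.02. Omitting 1 library at a time gave 401 to 1577 higher and 1847 to 3972 lower genes. The counts of higher genes without L3 replicate 4, L3 replicate 5, L2 replicate 1, L2 replicate 4 and L2 replicate 5 were 401, 1577, 437, 449 and 416, and those of lower genes without L3 replicate 4, L2 replicate 1, L2 replicate 4 and L2 replicate 5 were 2012, 2125, 2146 and 1847. The largest count of lower genes, 3972, was that without L3 replicate 3. The spread genes numbered 695, against 289 with a range of at least 3, 519 to 986 under the other settings and 152 to 840 with a library left out, 260 without L3 replicate 3 and 152 without L3 replicate 5. The separation was 60.2 to 94.9 with a library left out, always with the smallest exact p the splits allow.

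Of the named genes, those that changed sign had not passed the test. After rescaling, the differences were 0.33 for LdNA_10668, 0.25 for LdNA_22896, 0.39 for LdNA_30058 and 0.089 for LdNA_13787. With the replicate block they were 0.21 for LdNA_10668 and 1.04 for LdNA_30058. With 1 library left out, LdNA_30058 ran from -0.69 to 0.68 (0.68 without L3 replicate 3, 0.27 without L2 replicate 1, 0.14 without L2 replicate 5), LdNA_10668 from -0.51 to 0.055 (0.055 without L2 replicate 1), and LdNA_34013 from -0.54 (without L3 replicate 5) to 2.76. LdNA_11544 lost its call with each library left out except L3 replicate 5 (adjusted p by limma 0.0551 to 0.0932). Rescaling moved 9 of 13 list medians by more than the spread and turned 3 in sign. Array weights could not be fitted because the estimate did not converge. The cause of these changes was not tested.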
